A study of Mus musculus with 24 samples.

Results

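The genes described here are the 200 whose RNA stood highest in the thoracic aorta of Klotho-/- mice over that of wild-type mice whichever diet was fed, of 41012 genes in the deposited tables. They were chosen by their measured levels. Counts of a gene were scaled by the library total (CPM), and the median of log2(CPM + 1) was taken over the 6 mice of each group. Genes whose 2 Klotho-/- medians lay less than 0.5 apart were kept, and the score of a gene was the lower Klotho-/- median minus the higher wild-type median. The 200 highest scores above 0 made up the set, and a gene's rank is its place by score.

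The study compared 4 groups of 6 mice each, all of the strain given as C57/BL6 and all 8 weeks old. Wild-type (WT) mice and Klotho-/- (KO) mice received either a minimal magnesium diet (0.05% by weight) or a high one (0.48%) from birth until the aorta was taken. The labels name neither the allele behind the knockout nor a cell type in which Klotho was deleted, and every library came from whole thoracic aorta of its own mouse. WT mice on minimal magnesium were the control group, per the series' design text.

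Klotho is a membrane protein made mainly in the kidney, where it acts as the coreceptor through which the bone hormone FGF23 lowers phosphate reabsorption and active vitamin D. Mice without Klotho have high serum phosphate, age early and deposit calcium phosphate in the wall of the aorta, where smooth muscle cells take on features of bone and cartilage cells. Magnesium is known to limit the growth of calcium phosphate crystals, and a magnesium-rich diet has been studied as a way to reduce arterial calcification.

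The deposited tables use gene identifiers that the Mouse Genomes Project made for C57BL/6NJ mice, with no symbols beside them, and none of the 14 reference tables used here held such an identifier. The function of each member, the level of Klotho itself and the markers of aortic cell types were therefore not analysed here. Only 2 gene identifiers are printed, those of ranks 1 and 2, with that of 1 transcript of rank 1, and every other member is called by its rank. In bulk tissue, more cells of a type and more RNA per cell cannot be told apart.

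Library totals ran from 9947455 to 18926802 estimated counts. A library labelled WT on minimal magnesium (mouse 4) and a library labelled KO on minimal magnesium (mouse 20) went against their labels over the members. Mouse 4 lay above the other 11 WT mice at 167 of 200 members and reached the range of the 11 KO mice other than mouse 20 at 195. Mouse 20 lay at or below the highest of those 11 WT mice at 195 members. These counts cover only members, which were chosen for a gap between genotypes, and shares over all genes are not given for them. No reason for the values of mice 4 and 20 was tested, and results that rest on these libraries are given with and without them. The labels number the mice but name no batch. A division into mice 1 to 18 and mice 20 to 40, called series below, was taken over from earlier work on these data and stands in no label, so it may not mark a batch. The KO mice on minimal magnesium came almost all from the second series (5 of 6), while those on high magnesium came mostly from the first (4 of 6).

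Scores ran from 3.46 at rank 1, an 11.0-fold difference of the medians on the CPM + 1 scale, to 0.779 at rank 200. The median score was 0.989, or 1.99-fold. A score over 3 was reached by 3 members, over 2 by 11 and over 1 by 96. The last gene inside the limit (rank 200) and the first outside it (rank 201) both scored 0.779, so the limit falls where scores are level. In all, 35244 genes met the condition on the KO medians and 7016 of them had a score above 0.

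Most members were scarce in WT aorta. The higher WT median was below 1 CPM for 45 members, between 1 and 10 CPM for 89, between 10 and 100 CPM for 62 and above 100 CPM for 4. Shares of all genes tested in these ranges are not given, so these levels are not set against those of other genes. The lower KO median ran from 1.03 to 1762 CPM with a median of 9.87 CPM over the members, against 4.24 CPM for the higher WT median. All 200 members passed the filter on low counts, as did 16741 genes in all. Members had a median of 3 annotated transcripts, as the genes tested did, and 35.0% had a single transcript against 31.2% of those tested. Their longest transcript had a median length of 2688 bases, against 2947 bases for the genes tested.

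**Figure D1:**
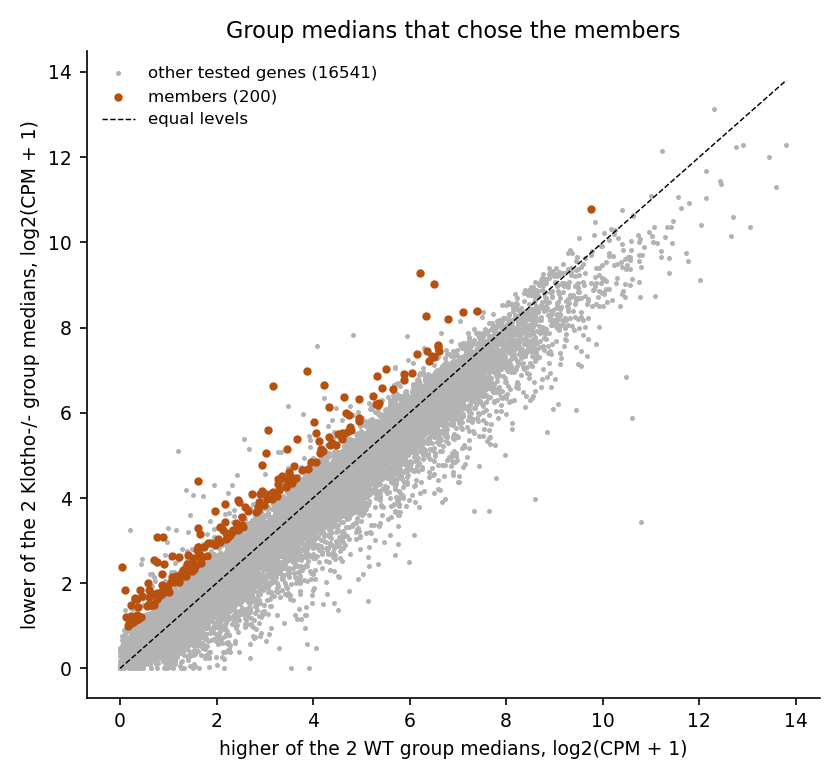
Each point is a gene that passed the filter on low counts, placed by the higher of the 2 WT group medians (x axis) and the lower of the 2 KO group medians (y axis), both as log2(CPM + 1). The 200 members (orange) lie above the dashed line of equal levels because the rule chose them there, and most of them lie at low to middle levels.

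The member of rank 1, MGP_C57BL6NJ_G0032724, has 5 annotated transcripts. WT mice on minimal magnesium ran from 5.84 to 105 CPM with a median of 7.96 CPM, and WT mice on high magnesium from 1.67 to 8.39 CPM with a median of 5.51 CPM. KO mice ran from 19.8 to 232 CPM (median 114) on minimal and from 69.7 to 147 CPM (median 98.2) on high magnesium. The value of 105 CPM belonged to mouse 4 and that of 19.8 CPM to mouse 20. All 12 KO mice, mouse 20 included, lay above the 11 WT mice other than mouse 4, whose highest value was 9.06 CPM. The edgeR log2 fold change of KO over WT, a description because the rule used this contrast, was 2.32 (SE 0.60) on minimal magnesium, 3.99 (SE 0.32) there without mice 4 and 20, and 4.14 (SE 0.66) on high magnesium.

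The member of rank 2, MGP_C57BL6NJ_G0000015, has 1 annotated transcript of 532 bases and behaved differently from mouse to mouse. WT mice on minimal magnesium ran from 5.99 to 654 CPM with a median of 13.7 CPM, the top value again in mouse 4, and WT mice on high magnesium from 7.13 to 87.6 CPM with a median of 8.43 CPM. KO mice on minimal magnesium ran from 6.45 to 605 CPM with a median of 164 CPM. On high magnesium the KO mice fell in separate levels, with 860, 722 and 657 CPM in mice 31, 32 and 13 and only 28.4, 25.3 and 4.46 CPM in mice 12, 11 and 16. Mice 12 and 11 lay inside the WT range and mouse 16 below it, and 6 of the 12 KO mice exceeded the 11 WT mice other than mouse 4. The median of 343 CPM on high magnesium is a midpoint between these levels. The rule took medians of log2(CPM + 1), which were 6.99 and 7.12 in KO mice on minimal and high magnesium. With widely split mice these differ from the log of the CPM medians. Leaving out any 1 of mice 13, 31 and 32 took the score from 3.11 to 1.00. Leaving out any 1 of mice 35, 36 and 40 took it to 2.01. Within mice 1 to 18, where KO on minimal magnesium is mouse 18 alone, the score was -0.66. Within mice 20 to 40, where KO on high magnesium is mice 31 and 32 alone, the score was 4.56.

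For rank 1 the score was 3.25 within mice 1 to 18 and 3.72 within mice 20 to 40, and the rule had used these same mice. Over all members, the score stayed above 0 for 162 of 200 within mice 1 to 18, with a median of 0.579, and for 199 within mice 20 to 40, with a median of 1.18. Over all genes tested it was above 0 for 35.7% and 45.2%. Without mice 4 and 20 all 200 scores stayed above 0, against 39.6% of all genes tested, and the median was 1.06. Since the members were chosen by this score in the same mice, positive values are built in and nothing is read from these counts.

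**Figure D2:**
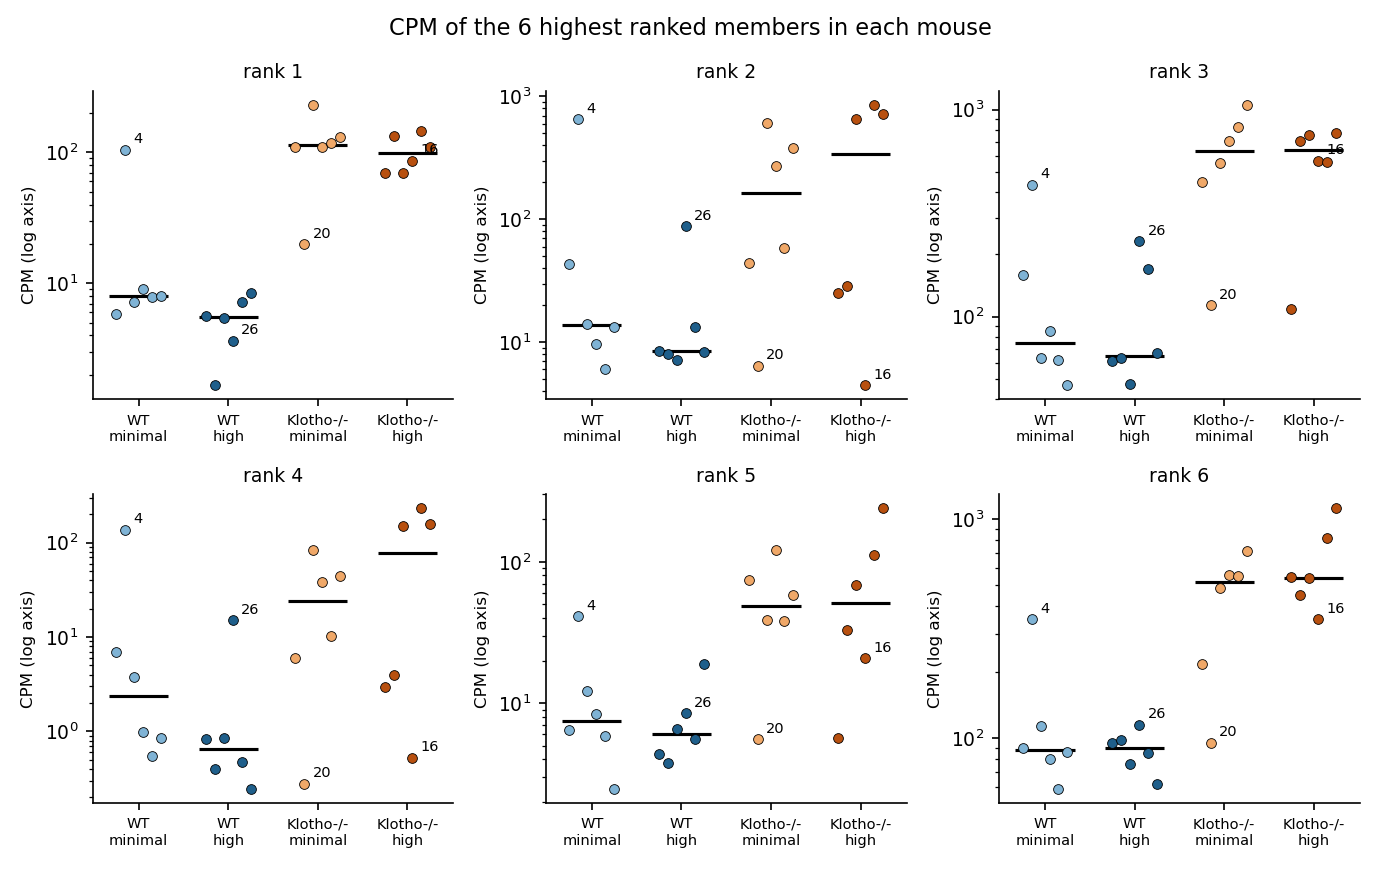
CPM on a log axis in each of the 24 mice for the members of ranks 1 to 6, with a point per mouse and a line at the group median; numbers are mouse numbers. Mouse 4 lies among the KO mice in every panel and mouse 20 among the WT mice in all but that of rank 1, and the KO mice on high magnesium are widely spread at ranks 2 and 4.

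Rank 3, a gene with 1 annotated transcript of 1827 bases, was high in most KO mice. Its medians were 74.5 and 64.9 CPM in WT mice on minimal and high magnesium and 629 and 635 CPM in KO mice. The exceptions were mouse 11 at 109 CPM and mouse 20 at 113 CPM, while the other KO mice lay between 447 and 1057 CPM. Of the 12 KO mice, 10 exceeded every WT mouse, mouse 4 (434 CPM) included.

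Rank 4 followed rank 2. Its group medians were 2.38 and 0.650 CPM in WT and 24.1 and 77.1 CPM in KO mice on minimal and high magnesium. On the log2(CPM + 1) scale that the rule used, its KO medians were 4.39 and 4.77, less than 0.5 apart. KO mice on high magnesium again split, with 150 CPM or more in mice 13, 31 and 32 and 3.92 CPM or less in mice 11, 12 and 16. Rank 5 had medians of 7.44 and 6.05 CPM in WT and 48.3 and 51.0 CPM in KO mice. Its 2 low KO mice were 11 (5.69 CPM) and 20 (5.55 CPM), and 10 of 12 KO mice exceeded the WT mice other than mouse 4.

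Ranks 6 and 7 were high in every KO mouse but mouse 20. Rank 6, with a single transcript of 540 bases, had medians of 88.2 and 90.4 CPM in WT and 518 and 540 CPM in KO mice, and the KO mice other than mouse 20 ran from 217 to 1121 CPM. Rank 7 had medians of 17.7 and 16.9 CPM in WT and 101 and 140 CPM in KO mice. In each, 11 of 12 KO mice exceeded the 11 WT mice other than mouse 4, and the remaining KO mouse was mouse 20.

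Rank 8 was at 0 CPM in 7 of 12 WT mice and at 0.346 CPM or below in all WT mice but mouse 4, which had 6.22 CPM. KO medians were 4.51 and 4.61 CPM, and single mice ran up to 54.3 CPM (mouse 32), with mouse 20 at 0. Rank 9 ran from 0 to 36.8 CPM in WT mice on minimal magnesium, the top value in mouse 38, and KO mice ran from 1.65 to 30.2 CPM. No KO mouse exceeded mouse 38 at this member. Rank 10 had KO medians of 7.97 and 7.46 CPM against 0.562 and 0.882 CPM in WT, and 4 KO mice exceeded the 11 WT mice other than mouse 4.

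On the length-scaled TPM scale of the deposited tables, which allows levels to be compared between genes, the highest members in KO aorta were of ranks 88, 6 and 87. Rank 88 had median TPM of 1223 and 754 in WT and 2510 and 1982 in KO mice on minimal and high magnesium. Rank 6 had median TPM of 206 and 229 in WT and 1160 and 1097 in KO mice. Rank 87 had median TPM of 384 and 318 in WT and 968 and 1235 in KO mice, yet its CPM medians were 2.12 and 1.55 in WT and 5.33 and 7.46 in KO mice, so its TPM rests on few reads.

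Together the members took 0.508% ± 0.321 (SD, n = 6) of all gene counts in WT mice on minimal magnesium and 0.345% ± 0.062 (n = 6) on high magnesium. In KO mice they took 0.999% ± 0.365 (n = 6) on minimal and 1.14% ± 0.327 (n = 6) on high magnesium. Without mouse 4 the WT share on minimal magnesium was 0.378% ± 0.058 (n = 5), and without mouse 20 the KO share there was 1.12% ± 0.231 (n = 5). Mouse 4 was at 1.15%, mouse 20 at 0.384%, and the highest of the other WT mice was mouse 38 at 0.463%. The lowest of the other KO mice was mouse 11 at 0.722%, so the ranges of the 11 and 11 mice did not overlap. The rule chose members by their levels in these mice, and mice 4 and 20 were set aside for their values at members. A gap is therefore built in and nothing is read from it.

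A second measure over the members counted, in each mouse, those above the midpoint between the lower KO and the higher WT group median. WT mice other than mouse 4 had between 0.5% (mouse 30) and 23.0% (mouse 38) of members above it, and KO mice other than mouse 20 between 53.5% (mouse 11) and 100% (mouse 32). Mouse 4 had 93.5% and mouse 20 had 11.5%. After mouse 11, the lowest KO mice were mouse 16 at 73.0%, mouse 18 at 81.0% and mouse 12 at 84.5%, and these 4 mice all belong to the series 1 to 18. The midpoint came from the medians that the rule used, so a gap between genotypes in this measure is built in too.

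**Figure D3:**
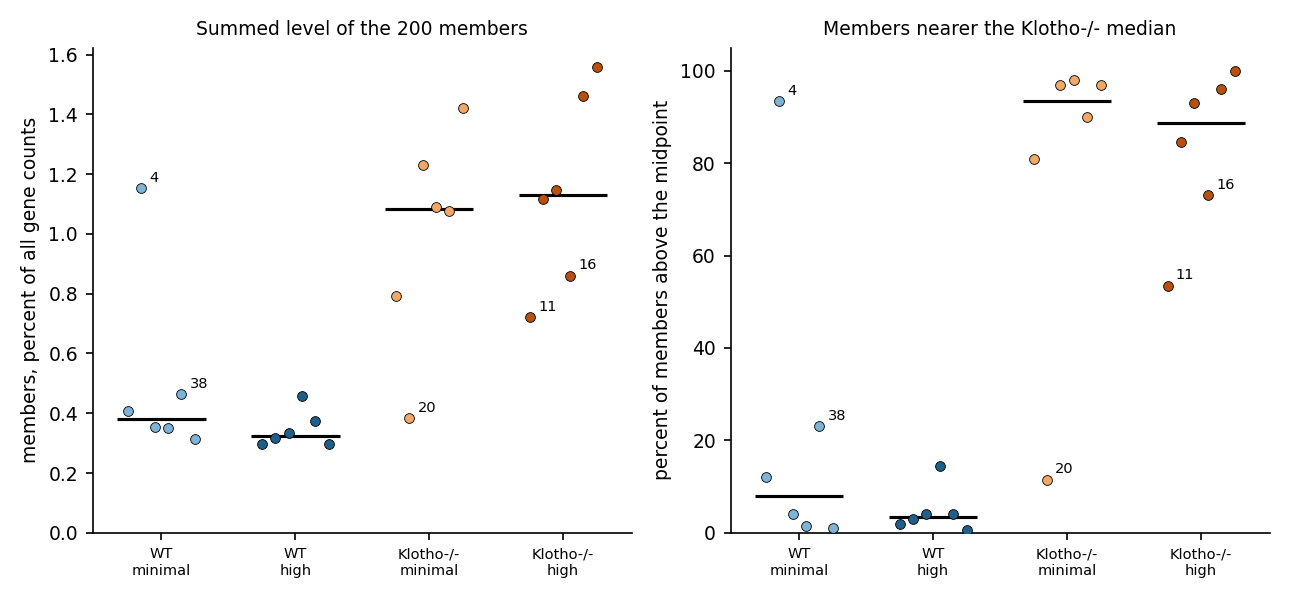
Left, the percent of all gene counts taken by the 200 members in each mouse; right, the percent of members above the midpoint between the lower KO and the higher WT median. Points are mice, lines are group medians and numbers are mouse numbers; mouse 4 (93.5% of members above the midpoint) and mouse 20 (11.5%) lie with the other genotype.

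With all 24 mice, no member had every KO mouse above every WT mouse. Without mice 4 and 20, 73 of 200 members separated the 11 KO from the 11 WT mice, where 2.55% of the 16741 genes tested did so, and since the rule used these values nothing is read from the excess. Mouse 11 lay at or below the highest of the 11 WT mice at 99 members, mouse 16 at 78 and mouse 32 at only 28. For these counts of single mice, shares over all genes are not given.

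The edgeR quasi-likelihood fit over all genes, with Benjamini-Hochberg adjustment and calls at 0.05, is given as a description for both genotype contrasts because the rule used them. On minimal magnesium the members' median log2 fold change of KO over WT was 0.74, against -0.02 over all genes tested. It was above 0 for 194 of 200 members, and 1 member (rank 21) was called, where 0.699% of all genes tested were called higher. That count ran from 0 to 118 with 1 mouse left out, 118 without mouse 4 and 61 without mouse 20, where 12.8% and 8.98% of genes were called in either direction, and was 0 in most of these fits. Without mice 4 and 20 the median was 1.37 and 153 members were called, where 13.6% of genes were. On high magnesium the median was 1.57 against 0.04 over all genes, all 200 values were above 0 and 166 members were called, where 16.3% of genes were. Without mice 4 and 20, 179 were called on high magnesium, where 18.1% of genes were.

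The members did not vary together as 1 block. Correlations between members were taken over 22 mice, without mice 4 and 20, after the group mean of log2(CPM + 1) was taken off each value. This removed differences between group means only. The spread within groups can still depend on genotype, diet or series and contribute to r. Points share the library and its depth, and no p is given. Over the 19900 pairs of members the median Pearson r was 0.28, with a range from the 5th to the 95th percentile of -0.25 to 0.72, and over pairs of all genes tested it was 0.11.

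Average-linkage clustering of these correlations, done after the values were seen and cut into 6 sets, gave a first set of 95 members, a second of 74 and 4 small ones of 31 in all. The median r was 0.44 within the first set, 0.53 within the second and 0.23 between them. The clustering used these same correlations, so a higher r within than between sets is built in. Rank 1 fell in the first set, with 4 of the first 10 ranks, and rank 2 in the second, with the other 6. The members most like rank 2 were those of ranks 4, 124, 38, 95 and 169, with r from 0.98 down to 0.92. Those most like rank 1 were of ranks 17, 21, 52, 27 and 16, with r from 0.62 to 0.57, and ranks 1 and 2 correlated at 0.14.

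The sets were cut by how members varied over these same mice, so a difference between sets in which mice are high is built in. Their values are given as a description. The median member of the second set stood 0.34 above WT in mouse 11 on the log2 scale, 0.65 in mouse 16, 0.93 in mouse 18 and 1.00 in mouse 37, against 1.77 to 1.96 in KO mice 13, 31, 32, 35, 36 and 40. Mouse 12 was between them at 1.14. For the first set, mouse 37 was at 1.37, level with mice 35 (1.25), 36 (1.23) and 40 (1.42), and mice 31 and 32 stood highest at 1.79 each. Mice 11 and 16 had only 35.1% and 52.7% of the second set above the midpoint but 56.8% and 80.0% of the first.

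The same holds for WT mice, whose values by set are also given as a description. Mouse 38 had 45.3% of the first set and 1.35% of the second above the midpoint, while mice 26 and 1 had 1.05% and 2.11% of the first and 28.4% and 27.0% of the second. Among the 11 WT mice other than mouse 4, mouse 38 was the highest at 56 members, mouse 1 at 40 and mouse 26 at 39, with shares over all genes not given. Ranks 9 and 11, both high in mouse 38, correlated at 0.83 within groups. Mouse 20 had 23.2% of the first set and 0% of the second above the midpoint. At rank 9, mouse 38 had 36.8 CPM and mouse 20 had 10.5 CPM, against at most 3.49 CPM in the other WT mice.

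**Figure D4:**
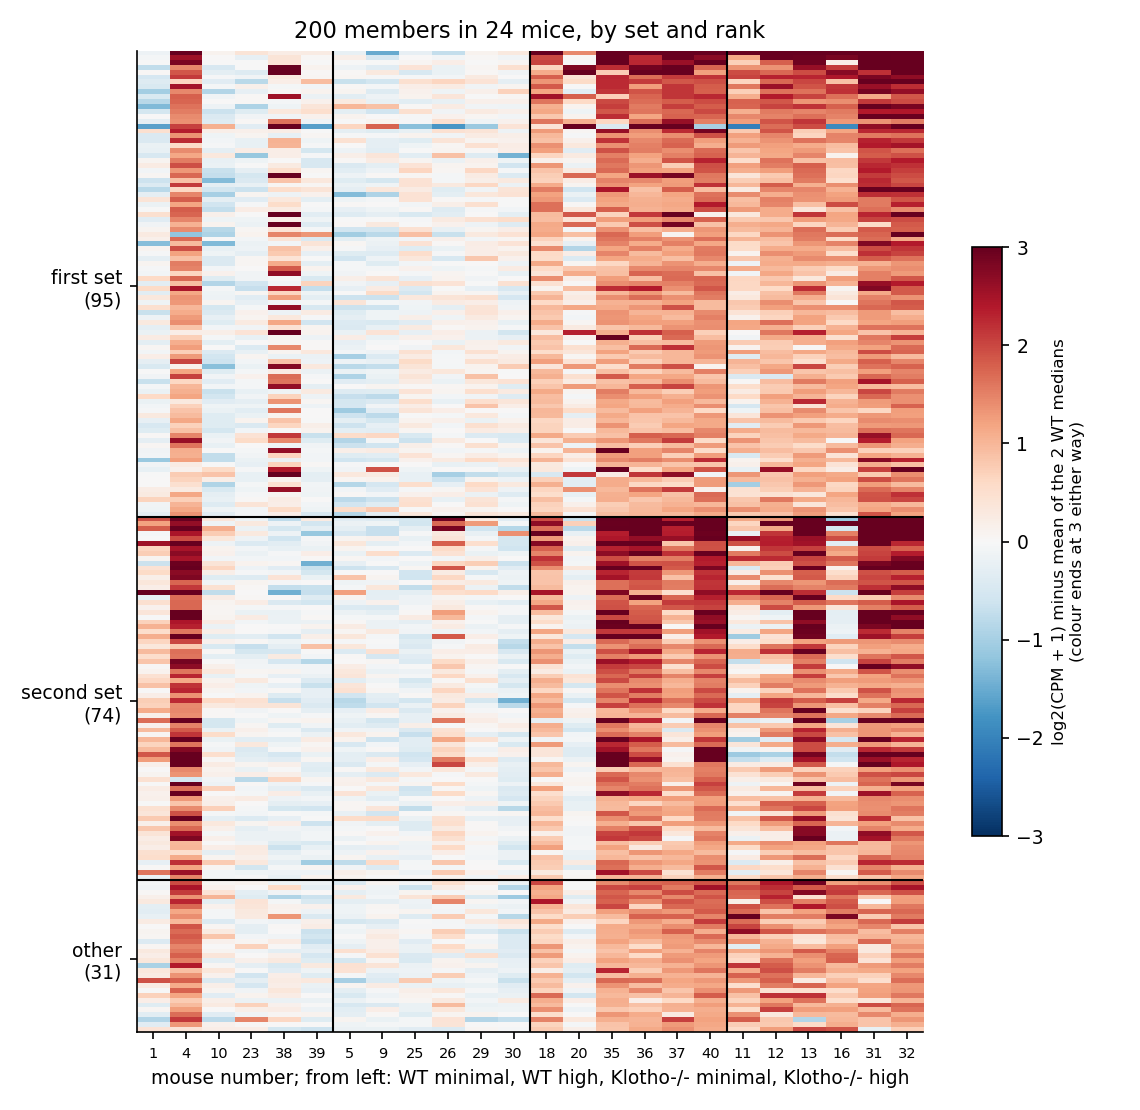
Rows are the 200 members, in 3 blocks (first set, second set, others) and by rank within a block; columns are the 24 mice in their 4 groups. Colour is log2(CPM + 1) minus the mean of the 2 WT group medians, with the scale ending at 3 either way. Mouse 4 is red in all 3 blocks and mouse 20 pale at most members; mice 38 and 20 are both red at part of the first set, and mice 11 and 16 are pale at much of the second.

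The diet contrast within WT mice was not used by the rule, apart from its taking the higher of the 2 WT medians. By edgeR's quasi-likelihood test, 0 of 200 members were called between high and minimal magnesium, and 0.0% of the 16741 genes tested were called (smallest adjusted p of a member 0.311). Without adjustment, 38 members (19.0%) and 1319 of all genes (7.88%) had p under 0.05. The members' median log2 difference, high minus minimal, was -0.54, against -0.04 over all genes. It was above 0 for 12 of 200 members, with the share over all genes not given, so nothing is read from that count. The median difference rested on mouse 4, as mouse 20 is not in the contrast: without mice 4 and 20 the median was -0.05, and again 0 members were called. DESeq2 called 4 of 200 members, all lower on high magnesium, where it called 1.29% of genes; weighted limma-voom called 0 members.

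For rank 1 the WT diet difference was -1.95 (SE 0.61, edgeR adjusted p = 0.331) and without mice 4 and 20 it was -0.51 (SE 0.28, edgeR adjusted p = 0.824). For rank 2 it was -2.25 (SE 1.27, edgeR adjusted p = 0.684) and 0.31 (SE 1.03, edgeR adjusted p = 0.962). In simulated counts, edgeR found 57% of genes changed 2-fold and 86% of those changed 4-fold by diet in WT mice, with 5 false calls among 148.

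A gene's counts are split over its transcripts, and the rule, which used only their sum, did not use the shares. Of the 200 members, 97 had at least 2 transcripts that passed the filter and could be tested for a change of shares. Members are higher in KO mice by rule, so a transcript of a member may pass this filter through KO mice alone. The counts of calls below are not corrected for this. The planned test, edgeR's diffSpliceDGE, called 1 member (rank 116) between KO and WT over both diets, where 3.37% of 9101 genes were called. On simulated counts that test made 136 false calls among 188, so a second test was added. It was limma on the log2 odds of each transcript's share of its gene, which made 5 false calls among 78 and none among 200 genes raised as a whole. It found 60% of genes with a 4-fold and 13% with a 2-fold change of a transcript. The simulation drew each transcript's counts independently and held no library against its label. Deposited counts are estimates that divide shared reads between transcripts, so these rates may not hold for the real data.

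By limma on shares, 14 of 97 members (14.4%) differed between KO and WT, where 10.3% of 9101 genes did, a share not far from that of the members. The transcripts of at least ranks 18 and 116 could pass the filter only through KO mice. Nothing is therefore read from the difference between these shares. The transcript with the smallest p had a higher share in KO for 9 of them and a lower share for 5. All 14 were called again without mice 4 and 20, when 19 of the members tested were called and 16.2% of genes, and again when the model held a series term. Both genotypes had 7 of 12 mice in the second series, so this contrast is balanced over the series. The count was less steady when single mice were left out, from 6 without mouse 40 to 19. It was 7 without mouse 16 or 31, 8 without mouse 10 or 11, and 9 without mouse 1, 25, 30, 32 or 35.

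Rank 1 was among the 14. Its 815-base transcript, MGP_C57BL6NJ_T0084415, held 20.0% ± 9.95 (SD, n = 6) of the gene's counts in WT mice on minimal and 24.1% ± 9.43 on high magnesium, but 3.55% ± 2.12 and 3.18% ± 3.90 in KO mice. The WT mice other than mouse 4 lay between 12.2% and 35.7% and the KO mice between 0% and 9.69%, so these ranges did not overlap. Mouse 4 had 60 of 1051 estimated counts (5.66%, 95% Wilson interval 4.46% to 7.28%) and mouse 20 had 28 of 354 (7.80%, 5.53% to 11.2%). These intervals cover counting error only, and leave out the uncertainty in dividing shared reads between transcripts. The log2 odds of this share, KO minus WT, differed by -3.87 (limma on shares, adjusted p = 0.00592), while diffSpliceDGE gave an adjusted p of 0.396 with all mice and 0.0132 without mice 4 and 20.

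The level of this transcript itself overlapped between genotypes. Its median was 1.30 CPM (range 0.559 to 2.08) in the 11 WT mice and 3.47 CPM (range 0 to 6.75) in the 11 KO mice, whereas the 1789-base transcript had a median of 2.997 CPM in WT and 62.5 CPM in KO. The latter made up 42.5% ± 8.50 and 48.5% ± 11.9 of the gene in WT and 54.6% ± 2.73 and 51.9% ± 6.68 in KO mice (SD, n = 6 each, minimal then high magnesium). The 801-base transcript had medians of 1.67 CPM in WT and 31.7 CPM in KO mice, and the 1732-base transcript 0.355 and 14.8 CPM. The difference between genotypes at rank 1 thus lay in its other transcripts far more than in the 815-base one.

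Rank 116 had 15 annotated transcripts, 3 of them tested, and was called by both tests (limma on shares, adjusted p = 0.000938; diffSpliceDGE, adjusted p = 0.00296). Its 3285-base transcript was between 0% and 4.24% of the gene in WT mice and between 0% and 10.6% in KO mice on minimal magnesium. This transcript could pass the filter on counts only through KO mice, chiefly those on high magnesium. Nothing is therefore read from the p-values at this member. In KO mice on high magnesium it was 41.6% to 59.8% in mice 11, 12, 13 and 16 and only 7.90% and 11.5% in mice 31 and 32. The former 4 belong to the series 1 to 18 and the latter pair to the series 20 to 40. In the first series the single KO mouse on minimal magnesium, mouse 18, was at 10.6%, and in the second series those mice lay between 0% and 5.24%. The lowest library had 7.84 estimated counts over the tested transcripts of this gene, so single shares are coarse.

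**Figure D5:**
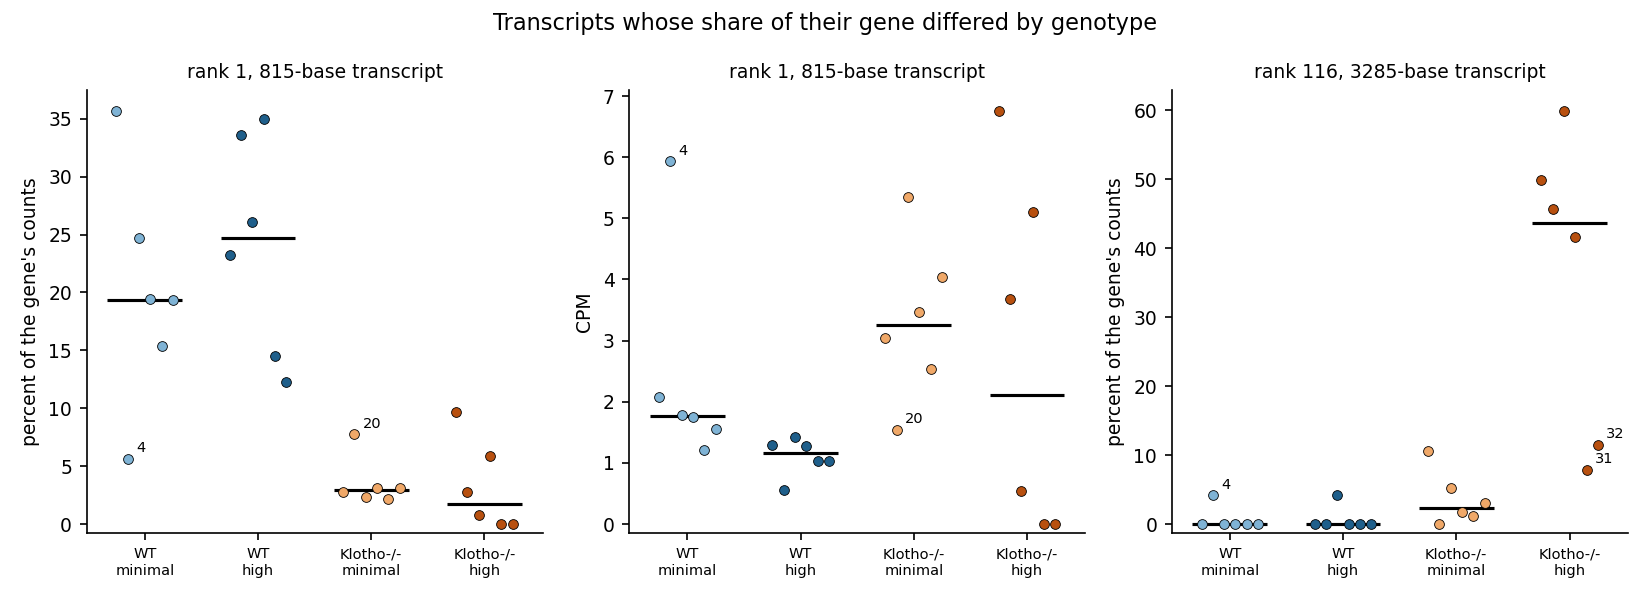
Points are mice, lines are group medians and numbers are mouse numbers. Left and middle, the share (percent of the gene's counts) and the level (CPM) of the 815-base transcript of rank 1; right, the share of the 3285-base transcript of rank 116. The share at rank 1 is lower in KO mice while its level overlaps with WT, and at rank 116 only 4 KO mice on high magnesium exceed 41%.

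The other shares that differed were smaller or less even. At rank 151, whose gene has 2 transcripts, the 3460-base transcript made up 91.7% to 100% of counts in the 11 WT mice other than mouse 4 and 88.1% to 100% in KO mice (limma on shares, adjusted p = 0.00607). At rank 11 the 3257-base transcript held 52.0% to 76.0% in WT and 43.8% to 59.4% in KO mice (limma, adjusted p = 0.0116). At rank 18 the 2115-base transcript held 0% to 15.01% in WT and 0% to 73.4% in KO mice (limma, adjusted p = 0.0123), and 1 WT mouse had no reads there and was left out of the fit. The 2115-base transcript was at 0% in every WT mouse on high magnesium and could pass the filter only through KO mice. Nothing is therefore read from its p-value. At rank 148 the 751-base transcript held 0% to 1.96% in WT and 0.714% to 4.37% in KO mice (limma, adjusted p = 0.0139), and at rank 88 the 1104-base transcript held 61.3% to 74.1% in WT and 68.8% to 77.6% in KO mice (limma, adjusted p = 0.0270). All of these ranges overlapped.

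Between diets within KO mice, diffSpliceDGE called 0 of 97 members, with 2 at an unadjusted p under 0.05, where 1.12% of genes were called. Limma on shares called 1, rank 116 again (adjusted p = 0.0350), where 0.538% of genes were called. Its transcript passed the filter chiefly through KO mice on high magnesium, so nothing is read from this call. That call was lost with a series term (0 members) and when any 1 of mice 11, 12, 16, 20, 35, 36 and 37 was left out. Between diets within WT mice, diffSpliceDGE called 1 member, rank 145 (adjusted p = 0.0171), where 0.78% of genes were called. Limma on shares called 0 there, where 0.0% of genes were called, with 12 members at an unadjusted p under 0.05.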

How the data were processed

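RNA of the thoracic aorta of 24 mice was sequenced. Per the labels' protocols, RNA was isolated with TRIzol and not treated with DNase. Per the submitters' processing notes, Salmon, FastQC and the build mm10 were used, with versions not given in the sources used here. Per the file headers, the deposited tables give TPM and an estimated count for each of 102919 transcripts, beside its length and effective length. The median effective length was 249 bases below the length. Estimated counts divide shared reads by model, so a gene with a near-identical copy is uncertain.

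Counts were summed per gene and rounded for tests. The members and lists were chosen with earlier results of these data known. The main fits used edgeR 4.0.16 (R 4.3.3) with TMM, filterByExpr and 4 group means over all 24 mice, and diffSpliceDGE for transcript shares. An added test was limma 3.58.1 on log2 odds of shares, with 0.5 prior reads at the mean total. DESeq2 1.42.0 and limma-voom were alternatives. Adjusted p-values are Benjamini-Hochberg over all genes tested. Named members follow the rule for tables without symbols: identifiers for ranks 1 and 2, values for ranks 1 to 10, 200 and 201 and for members called for transcript shares with the smallest p. Among 60 pairs of libraries within groups, the lowest chi-square per degree of freedom was 13.4, so none repeats another. Gene lists and cell type markers were not analysed here, since no symbols could be paired.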

Additional observations from a re-analysis of the deposited data

Results flagged for a closer look

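In 52 groups of 6 values (ranks 1 to 10 and 116, the summed level of the members and the share of the 815-base transcript of rank 1), the highest or lowest mouse was compared with the rest of its group, and 19 stood apart by a gap that is a large part of the group's range. Chance would mark about 1 in 20 groups if values were normal and groups independent. Most of these values are skewed CPM of correlated members from the same mice, so that rate does not apply here. In WT mice on minimal magnesium, mouse 4 stood above the others at 104.9 CPM for rank 1 (others at most 9.06), 654.1 for rank 2 (42.9), 434.0 for rank 3 (159.8) and 137.0 for rank 4 (6.93). It stood at 41.0 CPM for rank 5 (12.1), 347.9 for rank 6 (113.4), 105.2 for rank 7 (23.0), 6.22 for rank 8 (0.346) and 45.6 for rank 10 (8.92). The members summed to 11546 CPM in mouse 4 and at most 4629 CPM in the others.

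In the same group mouse 38 stood above the others at 36.8 CPM for rank 9 (others at most 3.49) and 20.0 CPM for rank 116 (5.70). In WT mice on high magnesium, mouse 26 stood above the others at 87.6 CPM for rank 2 (13.2), 15.2 CPM for rank 4 (0.853) and 4.94 CPM for rank 10 (1.43), and mouse 30 at 18.9 CPM for rank 5 (8.47). In KO mice, mouse 11 was low for rank 3 at 108.5 CPM (others at least 555.8), and mouse 37 was high for rank 116 at 11.7 CPM (others at most 7.44). The share of the 815-base transcript of rank 1 was 7.80% in mouse 20 and at most 3.16% in the other KO mice on minimal magnesium. The part of cell makeup, handling or labelling in these values was not tested.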

How the results depend on the processing

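Of the 200 members, another pseudocount or summary kept fewer: 132 with a pseudocount of 5, 114 with means in place of medians and 51 with mice 20 to 40 alone. Leaving out 1 mouse kept 131 to 193 (131 without mouse 16, 132 without mouse 12). For KO against WT on minimal magnesium, 138 genes were called in the main fit, 4061 without mice 4 and 20, 37 with a series term (0 members), 802 by DESeq2 (34 members, where 4.79% of genes were called), 5531 by limma-voom (165 members, 33% of genes), 57 without the filter (0 members), and 5 to 2171 with 1 mouse left out (2171 without mouse 4, 1523 without mouse 20, 5 without mouse 1, 10, 36 or 40). On high magnesium, 1 mouse left out gave 4668 to 5951.

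For diet in WT mice, DESeq2 called 4 members (1.29% of genes), and 1 mouse left out gave 0 to 0 by edgeR. For transcript shares by genotype, diffSpliceDGE called 5 members without mice 4 and 20 (5.08% of genes), 2 with a series term (4.2%), 6 with both (6.61%), and 1 to 4 with 1 mouse left out. Limma diffSplice called 7 of 97 (11.9% of genes), and limma on shares 14 (10.3%), with 6 to 19 when 1 mouse was left out. For shares by diet in KO mice, limma diffSplice called 3 of 97 (2.34% of genes), diffSpliceDGE with both changes 1 (1.22%), and limma on shares 1, with a series term 0. With 1 mouse left out, the main diffSpliceDGE fit gave 0 to 2 (2 without mouse 31) and limma on shares gave 0 to 1. For shares by diet in WT mice, 0 were called by limma diffSplice, 0 with transcripts of at least 10% of their gene, and 0 by limma on shares. With 1 mouse left out, the main diffSpliceDGE fit gave 1 to 1 and limma on shares gave 0 to 0. The cause of these changes was not tested. The direction at ranks 1 and 116 did not reverse in any fit run. No paired analysis was possible because mouse numbers differ between all groups. Shares of scarce genes are limited by depth.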
